A study of Mus musculus with 11 samples.

Results

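The genes described are 10 immediate early genes, *Fos*, *Fosb*, *Jun*, *Junb*, *Egr1*, *Ier2*, *Nr4a1*, *Atf3*, *Dusp1* and *Btg2*, taken by name from the 34728 gene symbols of the deposited RNA-seq table. All 10 were among the 11251 genes with an FPKM (fragments per kilobase of transcript, scaled to the fragments mapped) of at least 1 in at least 3 libraries, to which every test refers. The question was how far these genes differed between libraries of the same group, beside their differences between groups. RNA had been sequenced from GFP-sorted pancreatic β-cells in 11 libraries, all from 8-week-old mice of the C57BL/6 x 129SV strain: 3 from WT mice, 4 from diabetic βRapKOGFP mice and 4 from euglycemic βRapKOGFP mice. The mutants lacked *Raptor*, the gene of the defining subunit of mTORC1, in cells expressing Cre recombinase from the rat insulin promoter (RIP-Cre), and the euglycemic group had also carried insulin pellets for 4 weeks. WT mice were littermates with intact *Raptor* that carried the same RIP-Cre and *Rosa26*-GFP alleles, so none of the groups was free of Cre or of the reporter. Males alone were used. The GFP label marks cells in which the insulin promoter has been active at some time, and can stay on in a cell that no longer makes insulin.

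Immediate early genes are transcribed within minutes of a stimulus from factors already in the cell, without new protein synthesis. In β-cells glucose, membrane depolarization, calcium and cyclic AMP induce them, and so can the handling of tissue: enzymatic dissociation and sorting are known to raise *Fos*, *Jun* and heat shock transcripts in many cell types. Here islets had been released with collagenase, handpicked, dispersed with trypsin and sorted before RNA was extracted. *Fos*, *Fosb*, *Jun* and *Junb* encode subunits of the AP-1 transcription factor. *Egr1* encodes a zinc finger factor, *Nr4a1* an orphan nuclear receptor and *Atf3* a stress-induced factor of the ATF/CREB family. *Dusp1* encodes a phosphatase that inactivates MAP kinases, *Btg2* an antiproliferative cofactor of mRNA deadenylation, and *Ier2* a nuclear protein of the early response.

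Stretches of 170 bases before the start site are shown for *Fos* and *Jun*, the members that varied most between libraries of a group, for *Junb*, which departed from the others, and for *Dusp1* and *Btg2*, which hold a full cyclic AMP response element (CRE). They are read 5′ to 3′ on the strand of the gene, from RefSeq on GRCm38.p6, and capitals mark the CRE half-site TGACG or the full CRE TGACGTCA. *Fos* is on the plus strand at chr12:85473720-85473889, *Jun* on the minus strand at chr4:95052223-95052392, *Junb* on the minus strand at chr8:84978749-84978918, *Dusp1* on the minus strand at chr17:26508473-26508642 and *Btg2* on the minus strand at chr1:134079156-134079325.
Fos: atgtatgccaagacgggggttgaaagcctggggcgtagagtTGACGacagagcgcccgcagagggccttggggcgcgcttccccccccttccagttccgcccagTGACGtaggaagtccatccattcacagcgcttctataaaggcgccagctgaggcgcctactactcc
Jun: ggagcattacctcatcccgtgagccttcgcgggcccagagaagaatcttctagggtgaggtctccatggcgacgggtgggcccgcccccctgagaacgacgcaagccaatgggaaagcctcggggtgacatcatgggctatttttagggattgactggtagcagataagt
Junb: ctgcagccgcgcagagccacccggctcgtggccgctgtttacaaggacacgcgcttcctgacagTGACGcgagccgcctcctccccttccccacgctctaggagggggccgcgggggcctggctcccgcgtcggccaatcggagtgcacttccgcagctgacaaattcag
Dusp1: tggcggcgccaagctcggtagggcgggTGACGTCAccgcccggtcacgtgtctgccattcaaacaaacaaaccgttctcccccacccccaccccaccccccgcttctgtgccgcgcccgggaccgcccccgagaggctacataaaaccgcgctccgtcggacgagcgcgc
Btg2: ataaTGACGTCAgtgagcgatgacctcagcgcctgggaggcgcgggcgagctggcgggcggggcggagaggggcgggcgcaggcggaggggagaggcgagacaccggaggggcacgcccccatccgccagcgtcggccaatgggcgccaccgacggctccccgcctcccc

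Motifs were searched on both strands in the whole windows of 250 bases before to 50 bases after the start, of which the table holds 32851, with 8 for the members (*Ier2* and *Egr1* are not in it). The full CRE, where CREB binds, was found in *Dusp1* and *Btg2*, 2 of the 8, and in 1.79% of all windows. Its half-site TGACG, which every full CRE contains, was found in 7 of the 8, all but *Jun*, and in 20.8% of all windows. The SP1 box GGGCGG was also in 7 of the 8, all but *Junb*, against 35.7% of all windows, and the EGR site GCGNGGGCG, which can overlap it, in *Fosb*, *Nr4a1* and *Btg2*, against 5.55%. The AP-1 site TGANTCA and the CArG box bound by serum response factor were in 0 of the 8 windows and in 7.81% and 1.63% of all. The TATA box TATAAA was found before the start in *Fos* and at the start in *Junb*, and in 13.6% of all windows. These matches describe letters in a short window and not occupied sites.

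*Fos* had an FPKM of 172, 972 and 565 in WT replicates 1 to 3, of 323, 91.1, 339 and 122 in diabetic replicates 1 to 4, and of 2073, 602, 76.5 and 55.7 in euglycemic replicates 1 to 4. The highest and the lowest of the 11 libraries both belonged to the euglycemic group and were 37.2-fold apart, and the euglycemic range enclosed those of the other groups. The means were 569.7 ± 400.3 in WT (SD, n = 3), 219 ± 131 in diabetic (SD, n = 4) and 702 ± 948 in euglycemic libraries (SD, n = 4). *Fosb*, the close relative of *Fos*, was at 18.6, 64.3 and 77.5 FPKM in WT, 38.7, 9.54, 45.1 and 31.7 in diabetic and 40.7, 48.2, 6.17 and 5.30 in euglycemic libraries. As for *Fos*, diabetic replicate 2 and euglycemic replicates 3 and 4 were low and WT replicate 1 was the lowest of its group.

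*Jun*, the partner of *Fos* in AP-1, had an FPKM of 88.0, 766 and 817 in WT, of 223, 75.6, 209 and 88.5 in diabetic and of 754, 359, 75.8 and 40.2 in euglycemic libraries. WT replicate 1 was thus at the level of the lower diabetic libraries, 9.29-fold below WT replicate 3. *Junb*, a weaker activator that can oppose *Jun*, was at 483, 537 and 652 FPKM in WT, 281, 448, 389 and 346 in diabetic and 488, 251, 472 and 595 in euglycemic libraries. Its range over the 11 libraries was 2.60-fold, against 20.3-fold for *Jun*, and euglycemic replicate 4, which was lowest for *Jun*, was the second highest for *Junb*.

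*Egr1* followed *Fos* closely, with 90.1, 359 and 243 FPKM in WT, 189, 113, 206 and 101 in diabetic and 652, 246, 71.4 and 46.6 in euglycemic libraries. *Nr4a1* was at 67.7, 179 and 221 in WT, 297, 69.1, 198 and 105 in diabetic and 117, 152, 38.0 and 32.7 in euglycemic libraries. *Atf3* was at 62.0, 40.7 and 45.1 in WT, 92.6, 19.6, 56.7 and 58.0 in diabetic and 77.1, 94.9, 21.9 and 16.1 in euglycemic libraries. In the mutant groups both had their lowest values in the same 3 libraries as *Fosb*, while in WT *Atf3* differed by at most 1.52-fold and was highest in replicate 1.

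*Dusp1* had an FPKM of 81.1, 276 and 141 in WT, of 62.9, 39.2, 77.8 and 79.5 in diabetic and of 355, 112, 51.1 and 25.4 in euglycemic libraries. *Btg2* was at 146, 331 and 285 in WT, 146, 91.2, 130.4 and 105 in diabetic and 439.8, 151, 92.9 and 85.1 in euglycemic libraries. *Ier2* was at 198, 317 and 252 in WT, 140.2, 150.4, 220.2 and 186 in diabetic and 591, 234, 166 and 195 in euglycemic libraries. For these 3 genes the diabetic libraries differed by 2.03-fold at most, the euglycemic ones by 3.57 to 14.0-fold, with euglycemic replicate 1 the highest of the 11.

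**Figure D1:**
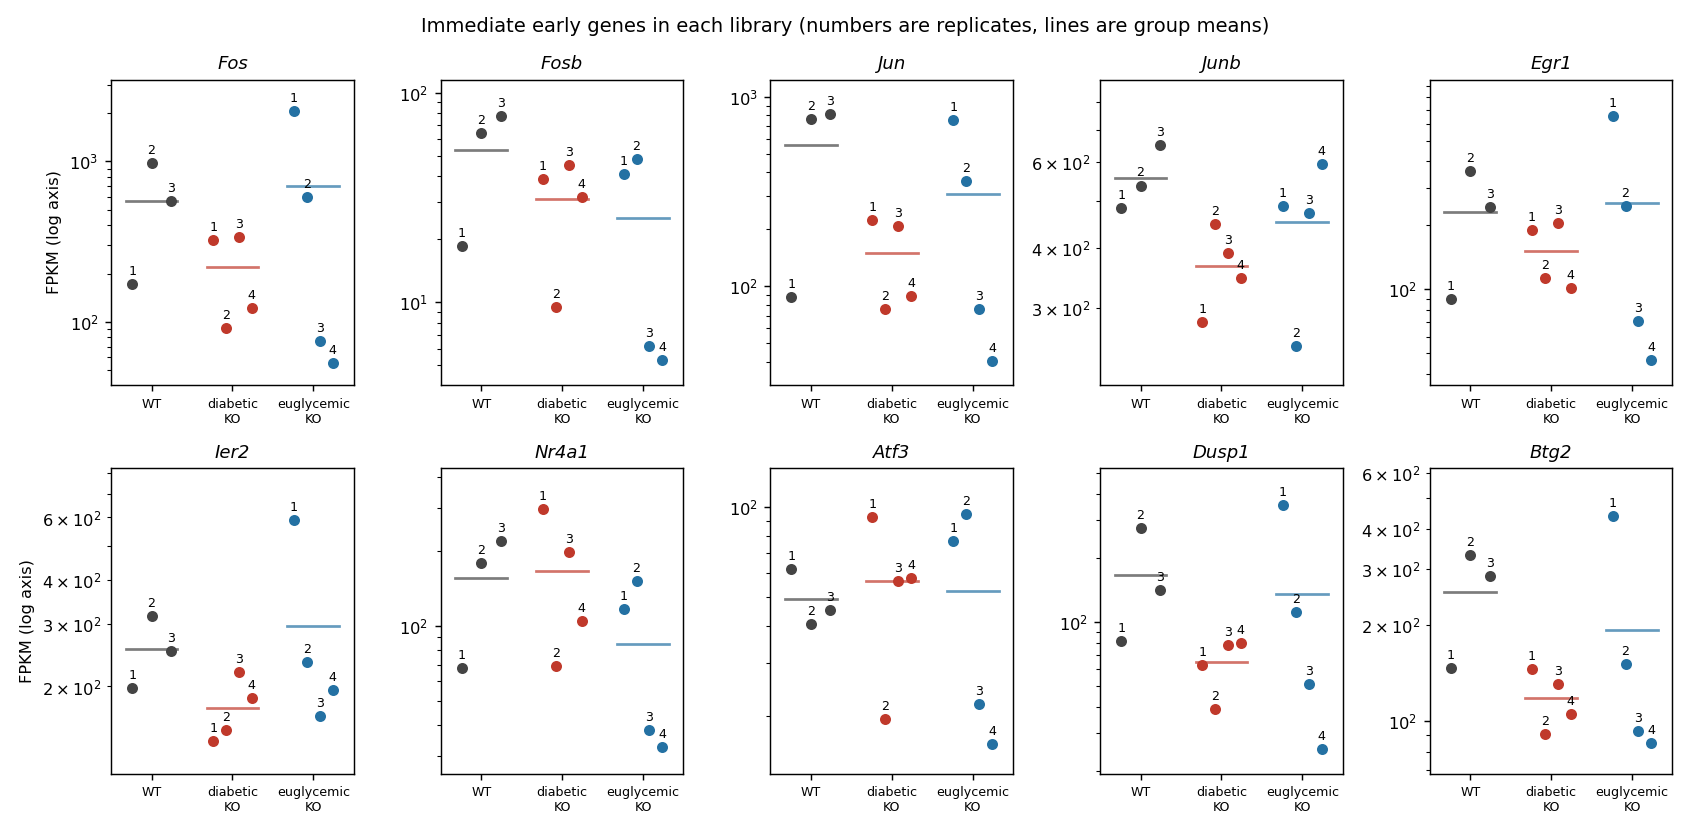
FPKM of the 10 genes on a log axis in each library, with replicate numbers at the points and a line at each group mean (WT n = 3, diabetic KO n = 4, euglycemic KO n = 4). In all panels but those of *Junb* and *Ier2*, the lowest of the 11 libraries is euglycemic replicate 4.

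Euglycemic replicate 4 was the lowest library for 8 of the 10 genes, all but *Junb* and *Ier2*. Euglycemic replicate 3 was among the 3 lowest for 9 genes and diabetic replicate 2 for 7. At the other end euglycemic replicate 1 was the highest for 5 genes (*Fos*, *Egr1*, *Ier2*, *Dusp1* and *Btg2*) and WT replicate 3 for *Fosb*, *Jun* and *Junb*. Measured from the group mean on the scale of log2(FPKM + 1), euglycemic replicate 1 and diabetic replicate 3 were above for all 10 genes. WT replicate 1 was below for 9, all but *Atf3*, and diabetic replicate 2 and euglycemic replicates 3 and 4 were each below for 9, all but *Junb*. The mean deviation over the 10 genes was −0.87, 0.52 and 0.35 in WT, 0.40, −0.68, 0.43 and −0.15 in diabetic and 1.5, 0.62, −0.90 and −1.23 in euglycemic replicates, in the order of their numbers.

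**Figure D2:**
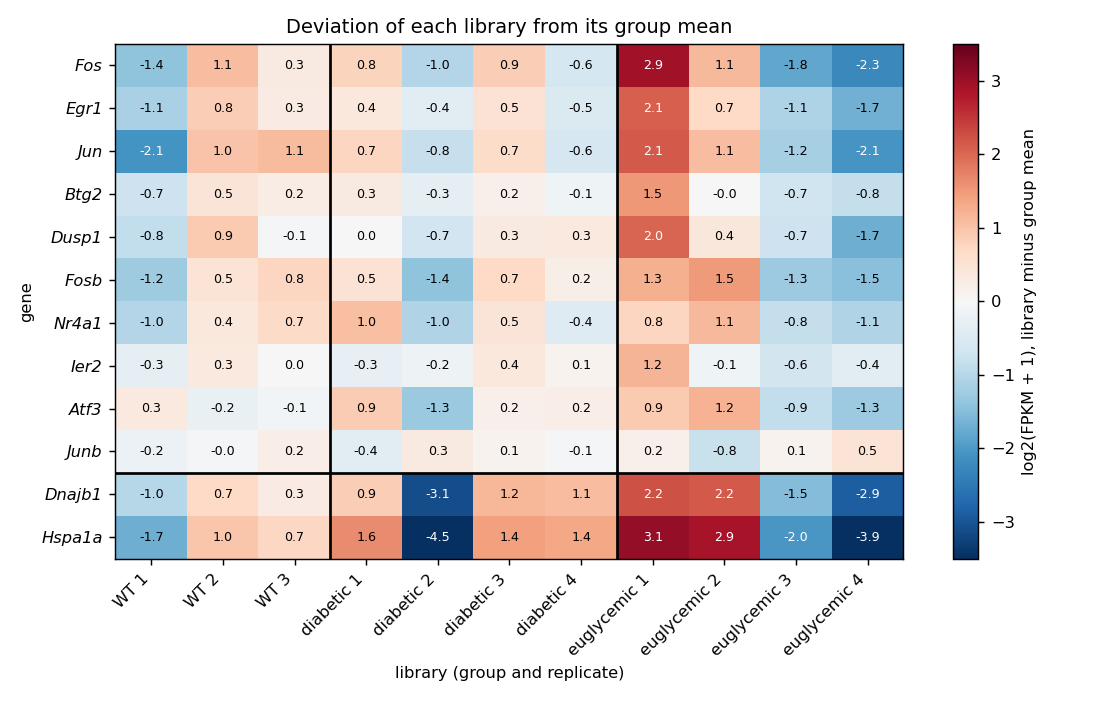
Deviation of each library from its group mean in log2(FPKM + 1) for the 10 genes, and below the line for the heat shock genes *Dnajb1* and *Hspa1a*. Red is above and blue below the group mean; in euglycemic replicate 1 the 10 genes are all above it.

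The genes moved together from library to library. Across the 11 libraries, and with group means removed, Pearson's r of a gene with the mean of the other 9 was 0.99 for *Fos*, 0.97 for *Egr1*, 0.96 for *Jun*, 0.94 for *Btg2*, 0.92 for *Dusp1*, 0.91 for *Fosb*, 0.87 for *Nr4a1*, 0.79 for *Ier2* and 0.68 for *Atf3*. For *Junb* it was −0.37. The 36 pairs without *Junb* had a median r of 0.85 and ranged from 0.43 to 0.99, with *Fos* and *Egr1* the most alike, whereas the 9 pairs with *Junb* had a median of −0.27 and 1 of them was above 0. The median over all pairs of genes tested was 0.059. These correlations are descriptions over the same 11 libraries, in each of which all genes come from 1 RNA sample sequenced to 1 depth, and in bulk RNA fewer cells that express a gene and less RNA per cell cannot be told apart.

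**Figure D3:**
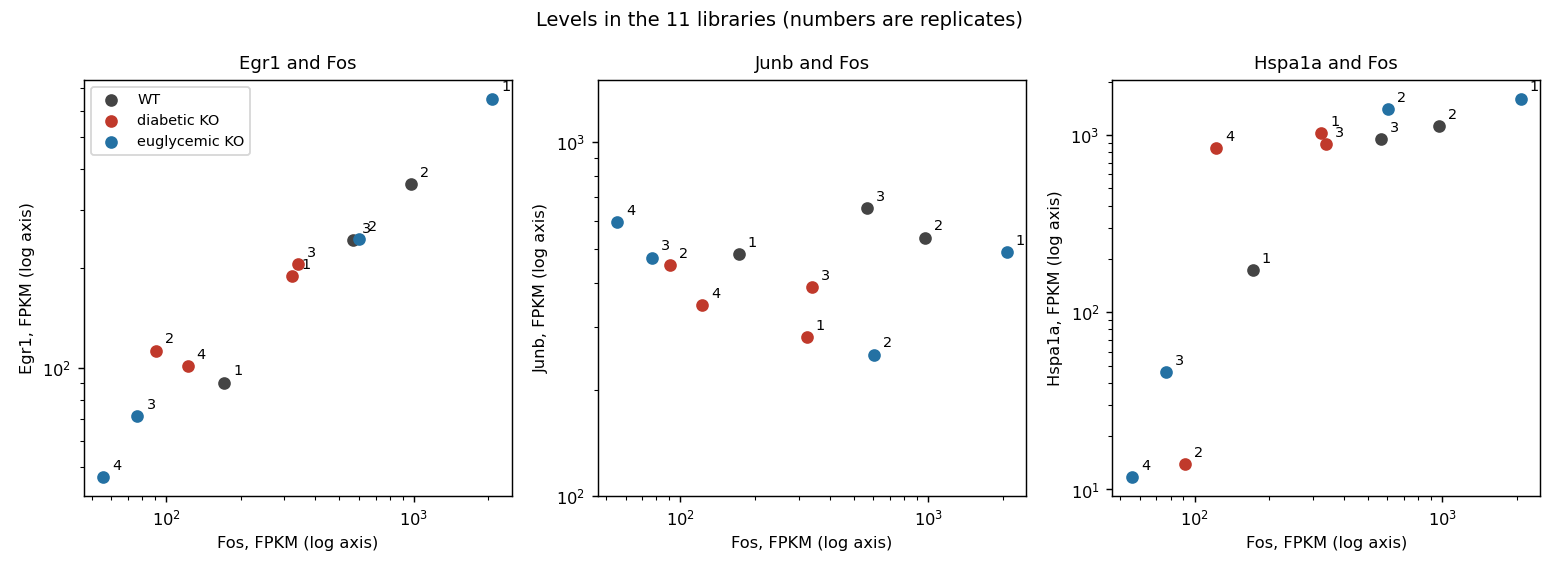
FPKM of *Egr1*, *Junb* and *Hspa1a* against that of *Fos* in the 11 libraries, both axes logarithmic and replicate numbers at the points. *Egr1* rises with *Fos* across the 3 groups, *Junb* stays between 251 and 652 FPKM, and *Hspa1a* is at or below 174 FPKM in 4 libraries and at or above 841 in the other 7.

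The spread within groups was large beside that of other genes. The within-group SD of log2(FPKM + 1), pooled over the 3 groups, was 1.74 for *Fos*, 1.58 for *Jun*, 1.26 for *Fosb*, 1.21 for *Egr1* and 1.12 for *Dusp1*, and these 5 SDs above 1 compare with 1.46% of all genes tested. It was 0.99 for *Nr4a1*, 0.96 for *Atf3*, 0.76 for *Btg2*, 0.56 for *Ier2* and 0.39 for *Junb*. The median over the 10 genes was 1.05, against 0.33 over all genes tested and 0.32 over the 3553 of them with a mean FPKM of at least 10. In the order of SDs over all genes tested, 8 of the 10 lay above the 95th percentile, *Ier2* at the 89.7th and *Junb* at the 67.4th.

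**Figure D4:**
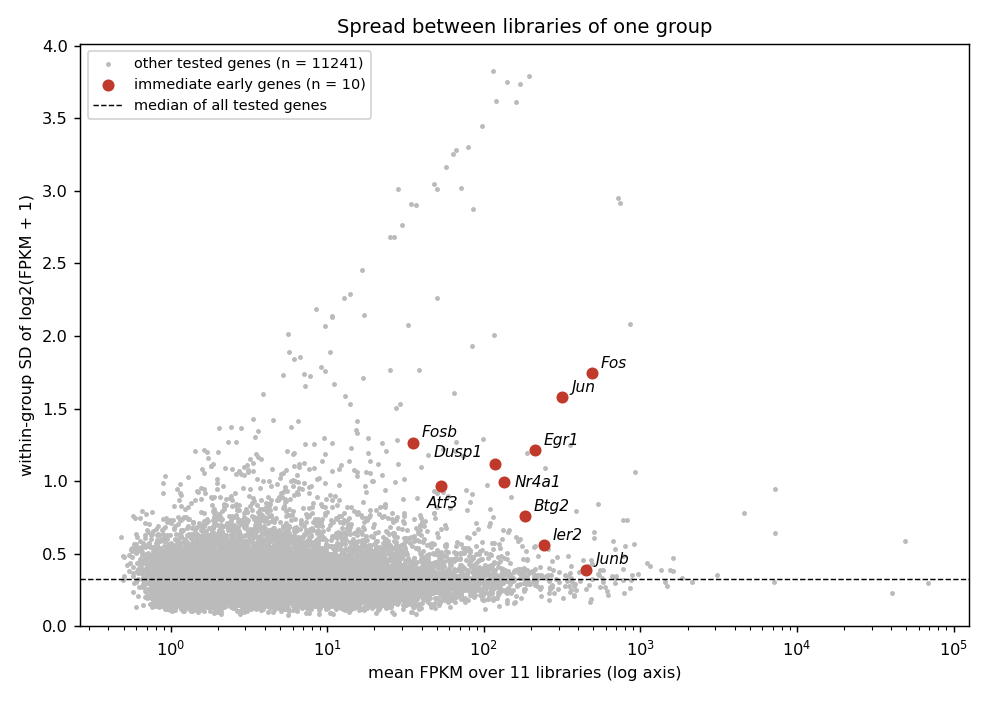
Within-group SD of log2(FPKM + 1) against mean FPKM over the 11 libraries (log axis) for all genes tested, with the 10 immediate early genes in red and the median of all genes tested as a dashed line. *Fos* (1.74) and *Jun* (1.58) lie far above the median of 0.33, and *Junb* (0.39) close to it.

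With all 11 libraries the euglycemic group was the most variable for all 10 genes, as it was for 41.5% of all genes tested. Their SD was higher in euglycemic than in diabetic libraries for 10 of 10, with a median ratio of 2.48, against 58.2% of all genes tested and a ratio of 1.16. It was also higher than in WT for 10 of 10, with a median ratio of 1.78, against 55.0% and 1.12. Because most of these genes moved together, 10 of 10 is not a count of separate observations. The highest and lowest library of a group differed by a median of 7.50-fold over the 10 genes in the euglycemic, 3.33-fold in the WT and 2.49-fold in the diabetic group. Without euglycemic replicate 1 the median within-group SD of the 10 genes was 0.93, and without euglycemic replicate 4 it was 0.95. For some genes the order of the groups rested on 1 library. Without euglycemic replicate 1 the euglycemic group was the most variable for 7 of the 10, the SD of *Ier2* falling from 0.82 to 0.25 and that of *Btg2* from 1.08 to 0.44, both below WT (0.34 and 0.63), and *Jun* being at 1.61 against 1.82 in WT. Without euglycemic replicate 2 the SD of *Junb* went from 0.54 to 0.18, below WT (0.22) and diabetic libraries (0.29). *Jun* was also more variable in WT without euglycemic replicate 4, WT replicate 2 or WT replicate 3, and *Nr4a1* without WT replicate 2.

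The inferred depth of the libraries was set beside this order. The deposited table gives no fragment totals, but low FPKM values of single-exon genes are whole multiples of 1 fragment (within a tolerance of 0.02 for 92.7 to 97.1% of them), from which the depth comes to 9497588 to 16643802 fragments per library. Euglycemic replicate 4, low for most members, had the fewest, 9497588, and euglycemic replicate 1, high for most, had the most, 16643802. Euglycemic replicate 3 had 15011820 and was among the lowest 3 for 9 genes, and WT replicate 1 had 13733497, the most of its group. The part of depth in the order of the libraries was not tested. The single-exon gene *Jun* corresponded to between 1217 and 40023 fragments and *Ier2* to between 2237 and 14967, so that counting alone gives these 2 genes an error of 2.87% at most.

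Transcripts of other pancreatic cells were present to different degrees. The summed FPKM of 14 acinar markers was 4.30 to 42.3 in WT, 24.2 to 2719 in diabetic and 18.6 to 4889 in euglycemic libraries, with none of the 14 at 0 throughout. It was highest in euglycemic replicate 4 and lowest of that group in euglycemic replicate 3, both low for the immediate early genes. The 9 endothelial markers, of which 6 reached an FPKM of 1 in any library, summed to at most 1.97 in WT, 10.2 to 53.1 in diabetic and at most 2.84 in euglycemic libraries. The 10 immune markers (6 reached an FPKM of 1, 2 were at 0 throughout) summed to 42.6 to 56.9, 75.2 to 199.7 and 58.9 to 128, and the 8 stromal markers to at most 1.03, 30.2 and 1.38. The immune markers did not move as 1. *C1qa* was at 33.3 to 41.4, 74.3 to 196 and 53.8 to 124 FPKM. *Cd79a* went the other way, at 8.20 to 20.1, 0.199 to 0.561 and at most 1.10. *Ptprc* was at 0.686 in diabetic replicate 1 and at 0 elsewhere. The 5 α-cell markers summed to 1047 to 2438 in WT, 3935 to 14718 in diabetic and 4759 to 23767 in euglycemic libraries, and the 3 δ-cell markers to 1176 to 2514, 4941 to 12262 and 4864 to 13953. *Ppy*, the PP-cell marker, was at 364 to 909, 3007 to 11315 and 3616 to 12189.7, the 6 duct markers summed to 58.1 to 71.8, 57.8 to 88.4 and 97.1 to 132.7, and the 10 β-cell markers to between 117287 and 206534 over the 11 libraries. The r with the mean deviation of the 10 genes was between −0.020 and 0.11 for the 14 acinar markers. It was 0.80, 0.45 and 0.32 for the δ-cell markers *Hhex*, *Sst* and *Rbp4*, and 0.84, 0.52, 0.083, −0.18 and −0.38 for the 5 duct markers tested, *Spp1*, *Krt7*, *Sox9*, *Muc1* and *Krt19*. Over the 10 β-cell markers it ran from −0.64 (*Ins2*) to 0.71 (*G6pc2*). Over the 4 α-cell markers tested it ran from −0.42 (*Gcg*) to 0.20 (*Irx2*), and over the 5 immune markers tested from −0.49 (*Cd74*) to 0.32 (*C1qa*). The part of these transcripts in the levels of the immediate early genes was not tested. *Rptor*, the targeted gene, was at 0.948 to 1.79 FPKM in WT, 0.485 to 0.937 in diabetic and 0.423 to 0.623 in euglycemic libraries.

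Between groups, none of the 10 genes passed the test. With limma on log2(FPKM + 1), with Benjamini-Hochberg adjusted p no higher than 0.05 and differences of 1.5-fold or more, 0 of 10 were called between diabetic and WT libraries, where 0.969% of all genes tested were called. Between euglycemic and WT libraries 0 of 10 were called, against 0.551% of all, and between diabetic and euglycemic libraries 0 of 10, against 0.00889%. At an unadjusted p of at most 0.05 the counts were 1 (*Btg2*), 0 and 0, where 11.9, 13.9 and 20.6% of all genes tested passed; *Btg2* also met the 1.5-fold limit, as did 8.26% of all. These counts moved with single libraries. Between diabetic and WT there were 3 without WT replicate 1, euglycemic replicate 1 or euglycemic replicate 4, and 0 without WT replicate 2 or 3 or diabetic replicate 3 or 4. Between euglycemic and WT there were 3 without WT replicate 1 or euglycemic replicate 1 and 2 without euglycemic replicate 2. Between diabetic and euglycemic libraries there were 2 without euglycemic replicate 2, and 1 without euglycemic replicate 3 or diabetic replicate 2. For fits without 1 library, the share of all genes at an unadjusted p was not computed, so these counts have no background. The adjusted shares, in the same order of comparisons, moved as well. They were 0.304, 4.76 and 3.40% without WT replicate 1, and 1.88, 0.556 and 0.0359% without euglycemic replicate 4. A moderated F test over the 3 groups in limma also gave 0 of 10 (0.782% of all), and 0 at an unadjusted p of at most 0.05 (19.6% of all). Replicates are numbered in the labels without naming the animals, so these p-values measure the spread between these libraries, and the comparisons with WT share the 3 WT libraries.

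Between diabetic and WT libraries the differences of largest size were those of *Jun* and *Fos*, the members with the largest spread. The log2 fold change was −1.51 for *Jun* (95% confidence interval −3.58 to 0.55, adjusted p = 0.583 from limma) and −1.28 for *Fos* (−3.56 to 0.998, adjusted p = 0.696 from limma). *Dusp1*, *Btg2* and *Junb* were the 3 genes whose groups did not overlap, each with the diabetic libraries below WT, against 6.88% of all genes tested in that direction and 13.5% in either. The gap was small: the highest diabetic and lowest WT values were 145.7 and 146.3 FPKM for *Btg2*, 79.5 and 81.1 for *Dusp1* and 448 and 483 for *Junb*. Their log2 fold changes were −1.22 for *Dusp1* (−2.70 to 0.26, adjusted p = 0.521), −1.04 for *Btg2* (−2.07 to −0.01, adjusted p = 0.416) and −0.61 for *Junb* (−1.23 to 0.00, adjusted p = 0.42), all from limma. The other members gave −0.72 for *Fosb*, −0.55 for *Ier2*, −0.45 for *Egr1*, 0.05 for *Nr4a1* and 0.03 for *Atf3*. The median over the 10 genes was −0.67, with 8 below 0, against a median of 0.0063 and 49.3% below 0 over all genes tested. Without WT replicate 1 this median was −1.18. Most of the 10 genes moved together from library to library, so counts of them by sign, here and below, are not separate observations.

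Between euglycemic and WT libraries the groups overlapped for all 10 genes, while they were apart in 10.9% of all genes tested. The log2 fold change was −1.41 for *Fosb* (95% confidence interval −3.08 to 0.25, adjusted p = 0.432 from limma), −1.16 for *Jun*, −1.0 for *Nr4a1*, −0.78 for *Dusp1*, −0.75 for *Fos*, −0.66 for *Btg2*, −0.38 for *Egr1*, −0.36 for *Junb*, −0.26 for *Atf3* and 0.04 for *Ier2*. The median was −0.70, with 9 of 10 below 0, against −0.010 and 51.0% over all genes tested. It moved with single libraries, to −1.21 without euglycemic replicate 1, −1.11 without WT replicate 1, −0.38 without WT replicate 2, −0.41 without euglycemic replicate 3 and −0.30 without euglycemic replicate 4. For *Fos*, *Egr1* and *Atf3* the scale set the direction: their mean FPKM was higher in euglycemic than in WT libraries, 702 against 569.7, 254 against 231 and 52.5 against 49.3, while the means of log2(FPKM + 1) were lower. Without euglycemic replicate 1 the log2 fold change of *Fos* was −1.72, and without euglycemic replicate 4 it was 0.0087.

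Between diabetic and euglycemic libraries the groups again overlapped for all 10 genes, against 14.3% of all genes tested with groups apart. *Nr4a1* was 1.06 higher in diabetic libraries on the log2 scale (95% confidence interval −0.17 to 2.28, adjusted p = 0.303 from limma), and *Ier2* was −0.59 (−1.33 to 0.15, adjusted p = 0.336 from limma). The other 8 lay between −0.53 for *Fos* and 0.69 for *Fosb*. The median was −0.30, with 7 of 10 below 0, against 0.0088 and 49.1% over all genes tested. It turned to 0.40 without euglycemic replicate 1, and was −0.074, −0.52 and −0.65 without euglycemic replicates 2, 3 and 4 and −0.14 and −0.20 without diabetic replicates 2 and 4. Without euglycemic replicate 1 the differences of *Fos*, *Jun*, *Egr1*, *Dusp1* and *Btg2* changed sign, to 0.44, 0.36, 0.63, 0.24 and 0.13.

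**Figure D5:**
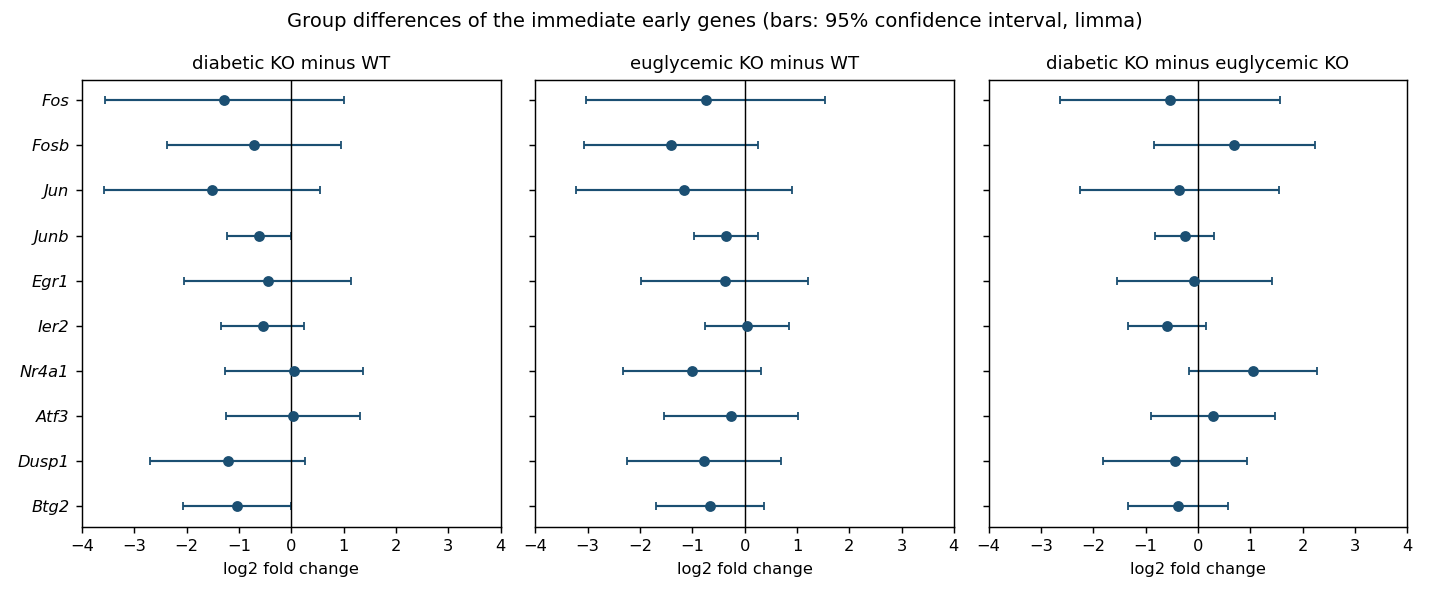
Log2 fold change of the 10 genes in the 3 comparisons, with 95% confidence intervals from limma (WT n = 3, diabetic KO n = 4, euglycemic KO n = 4). The intervals include 0 in all panels except that of *Btg2* between diabetic KO and WT, which ends at −0.01.

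The widths of these intervals follow from the spread. Differences between groups held a median of 20.8% of the sum of squares of the 10 genes, against 28.7% over all genes tested, and 8 of the 10 lay under that median. The share was 2.59% for *Atf3* and 3.21% for *Egr1*, and it was highest for *Junb* (34.8%) and *Btg2* (29.0%). For 4 of the 10 genes the within-group SD was larger than the log2 fold change in each of the 3 comparisons, as it was for 35.7% of all genes tested.

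Among 44 other early response genes, of which 37 were tested, 2 were called lower in diabetic than in WT libraries, *Egr4* and *Gadd45g* (0.498% of all genes tested were called lower), and 0 in the other comparisons. Before adjustment limma passed 5, 10 and 8 at 0.05, where 11.9, 13.9 and 20.6% of all genes tested passed. Without WT replicate 1 the counts were 2, 7 and 3, with 0.304, 4.76 and 3.40% of all genes called, and without diabetic replicate 1 they were 2, 1 and 0. In the other 9 fits that left out 1 library 1 or 2 were called between diabetic and WT and 0 in the others. Library weights gave 4, 13 and 4, with 4.90, 20.3 and 10.8% of all genes called. *Gadd45g*, a stress sensor of the GADD45 family, was at 332, 319 and 404 FPKM in WT, 76.3, 81.1, 97.3 and 121 in diabetic and 235, 162, 134 and 185 in euglycemic libraries. Its within-group SD was 0.29, and with limma its diabetic libraries were −1.91 from WT on the log2 scale (standard error 0.23), with an adjusted p = 0.00254. The call stayed in all 20 alternatives, with an adjusted p of 0.000207 to 0.0258. *Egr4*, a relative of *Egr1*, was at 8.03, 10.5 and 11.2 FPKM in WT, 5.10, 0.524, 1.72 and 1.35 in diabetic and 2.29, 4.55, 1.33 and 2.20 in euglycemic libraries, with a log2 fold change of −1.96 (standard error 0.40, adjusted p = 0.0376 from limma). That call was lost in 11 of 20 alternatives, where the adjusted p over all 20 ran from 0.00565 to 0.169 and the log2 fold change from −2.53 to −1.67. Leaving out any WT library, diabetic replicate 2, 3 or 4 or euglycemic replicate 1 ended it, and over the 11 fits without 1 library the adjusted p was 0.0118 to 0.162. *Jund*, the AP-1 gene with the highest level of the list, was at 663 to 988 FPKM in WT, 701 to 1029 in diabetic and 589 to 738 in euglycemic libraries, but 52.6% of its exon bases overlap *Gm11175* on the other strand, and reads of the pair cannot be told apart.

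Several heat shock genes, which encode chaperones, were low in the same libraries as the immediate early genes. *Hspa1a* was at 174, 1129.97 and 946 FPKM in WT, 1023, 13.9, 893 and 841 in diabetic and 1607, 1403, 46.0 and 11.7 in euglycemic libraries. Its near-identical copy *Hspa1b* shares sequence with it, so the split of reads between them is uncertain. *Dnajb1*, a cochaperone with no such copy in the list, was at 403, 1304 and 977 in WT, 959.8, 60.1, 1186 and 1111 in diabetic and 1708, 1613, 126 and 48.2 in euglycemic libraries. Both were thus low in diabetic replicate 2, euglycemic replicates 3 and 4 and, in WT, replicate 1, with within-group SDs of 2.92 and 2.08, and diabetic replicate 4 had high levels of both with *Fos* at 122 FPKM. Of the 12 heat shock genes 0 were called in each comparison with limma, against 0.969, 0.551 and 0.00889% of all genes tested. Before adjustment 1, 0 and 2 passed 0.05, against 11.9, 13.9 and 20.6% of all. Library weights called *Hsp90aa1* between euglycemic and WT and *Hspe1* between diabetic and euglycemic libraries, where they called 20.3 and 10.8% of all genes tested. The r with the mean deviation of the 10 immediate early genes was above 0.5 for 8 of the 12, and lower for *Hsp90aa1* (0.49), *Hspd1* (0.48), *Hspe1* (0.33) and *Hsph1* (0.28).

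Of 12 NF-κB early targets, 6 had an r below −0.5 with the same mean deviation, 2 (*Nfkbiz* and *Tnfaip3*) one above 0.5 and 4 lay between. *Nfkbia*, the inhibitor that NF-κB itself induces, was at 492, 190.3 and 260.5 FPKM in WT, 174, 400.3, 358 and 495 in diabetic and 192, 267, 768 and 636 in euglycemic libraries. Its highest values were those of euglycemic replicates 3 and 4, where *Fos* was lowest, and within WT it was highest in replicate 1. *Cebpb* was at 102 to 212 FPKM over all 11 libraries. Of these 12 genes 0 were called in each comparison with limma, against 0.969, 0.551 and 0.00889% of all genes tested. Before adjustment 2 in each passed 0.05, against 11.9, 13.9 and 20.6% of all. Without WT replicate 1, *Cebpd* and *Tnfaip3* were called between diabetic and euglycemic libraries, with 3.40% of all genes called. Without diabetic replicate 2 *Cebpd* was called between diabetic and WT, with 0.601% of all genes called. Library weights gave 2, 1 and 2 calls, with 4.90, 20.3 and 10.8% of all genes called. Among 24 upstream regulators, kinases and factors such as SRF and CREB, 20 were tested and 0 called, against the shares of all genes just given. At an unadjusted p of at most 0.05 there were 2, 0 and 4, where 11.9, 13.9 and 20.6% of all genes tested passed. Library weights called *Braf* between euglycemic and WT, and *Braf* and *Map2k7* between diabetic and euglycemic libraries, where they called 20.3 and 10.8% of all genes. *Srf* was at 6.60 to 48.1 and *Mapk14*, which encodes p38α, at 8.62 to 38.3 FPKM over the 11 libraries, and their r with the mean deviation of the 10 genes was −0.78 and −0.45.

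Likeness to the mean deviation of the 10 genes was computed for each of the other 11241 genes tested, over the 11 libraries and as a description. Among them 25.6% had an r above 0.5 and 9.44% one below −0.5. The shares above 0.5 were 51.4% of other early response genes (19 of 37), 66.7% of heat shock genes (8 of 12), 25.0% of upstream regulators (5 of 20) and 16.7% of NF-κB targets (2 of 12), of which 6 of 12 were below −0.5. The most alike were *Large2* (0.98), *Fam20c* (0.97), *Snai2* (0.96), *Sipa1l1* (0.96) and *Snd1* (0.95), with within-group SDs of 0.32 to 0.59. *Fam20c*, a secretory pathway kinase, was lowest at 20.1 FPKM and highest at 38.3, in euglycemic replicates 4 and 1. The least alike were *Tnfrsf12a* (−0.98), *Slc7a1* (−0.98) and *Mthfd2* (−0.98). *Tnfrsf12a*, the receptor of the cytokine TWEAK, was at 44.6, 10.3 and 18.9 FPKM in WT, 37.1, 79.3, 26.1 and 46.8 in diabetic and 13.5, 29.2, 152 and 145 in euglycemic libraries. *Mthfd2*, a mitochondrial enzyme of folate metabolism, was at 42.8, 17.0 and 18.5 in WT, 11.7, 31.6, 13.1 and 17.0 in diabetic and 10.3, 12.4, 39.4 and 44.6 in euglycemic libraries. Both were high where *Fos* was low, in WT replicate 1, diabetic replicate 2 and euglycemic replicates 3 and 4.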

How the data were processed

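The 11 libraries of sorted β-cells were grouped by the labels into WT, diabetic and euglycemic mutants. Columns of the table headed KI were taken as the insulin-treated mutants, since the other headings are WT and KO; the labels do not spell out KI, and all euglycemic values rest on this. The authors deposited 1 FPKM value per gene and library on mm10. The submitters' processing notes name HISAT2 2.0.4 and StringTie 1.3.0, while the paper's methods name Tophat and Cufflinks, so which program made the values is unsettled. Of 34745 entries, 34267 matched a symbol and 478 did not, and 17 that shared a symbol with a higher entry were left out. Coordinates are those of GRCm38.

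FPKM is not a count, so limma 3.58.1 (lmFit, eBayes with a trend) in R 4.3.3 was fitted to log2(FPKM + 1) over all libraries, for genes reaching an FPKM of 1 in 3 or more libraries. Such fold changes understate those of low genes. Calls needed a Benjamini-Hochberg adjusted p no higher than 0.05 and a 1.5-fold change. The fit was tested on simulated data. Other values were computed with Python 3.11.15, numpy 2.4.6 and pandas 2.3.3. Confidence intervals are 95%.

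The members and lists were chosen with earlier results of these data known. Besides the 10 members, the genes named are those called and the 2 of highest mean FPKM in each list, and the 5 most and 3 least like the members. The δ-cell, duct and PP-cell markers are named from marker lists. The single α-cell, β-cell and immune markers, and the duct markers given with means, were chosen after their values were seen. So were *Cebpd*, *Arc*, *Npas4*, the genes that only library weights or fits without 1 library called, and the heat shock and NF-κB genes given with their r alone. The kit does not mark strand: *Jun* overlaps *Junos* over 7.28% of its exon bases, *Junb* overlaps *Prdx2* over 7.52% and *Dusp1* overlaps *Ergic1* over 0.332%, on opposite strands, as do *Cebpb* with *Tmem189* (20.7%), *Hspa1a* with *Gm20481* (19.0%) and *Hspd1* with *Hspe1* (4.24%), while *Spp1* overlaps *Gm42793* on its own strand (18.8%). Alternatives were the filter, the pseudocount, TPM, the median of ratios, no trend, library weights, the 2 compared groups alone, other criteria, the replicate number as a block and leaving out each library. The comparison with genes of a mean FPKM of at least 10, the order of group SDs without each library and the CRE half-site were chosen after seeing the data. Libraries of the same replicate number were not more alike than others.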

Additional observations from a re-analysis of the deposited data

How the results depend on the processing

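In all 3 comparisons and the F test, 0 members were called under every alternative fit, with a lowest adjusted p of 0.0622 (limma with library weights, euglycemic against WT). By an unadjusted p of at most 0.05 with a 1.5-fold change, 1 (*Btg2*) passed between diabetic and WT libraries. At that p alone *Btg2* did not pass with the replicate block, TPM, pseudocount 0.1 or no filter. Library weights gave 4 members between diabetic and WT and 2 between euglycemic and WT. That fit called 4.90 and 20.3% of all genes tested by the adjusted rule. Its share of all genes at an unadjusted p was not computed. Direction changed with library weights to −0.15 for *Nr4a1* between diabetic and WT, to −0.029 for *Ier2* and 0.42 for *Atf3* between euglycemic and WT and to −0.11 for *Atf3* between diabetic and euglycemic libraries, and with TPM to 0.052 for *Egr1* between diabetic and euglycemic libraries, where TPM moved the median of all genes tested to 0.12. Leaving out 1 library changed the direction of some small differences. Between diabetic and WT these were *Nr4a1* (−0.46 to 0.40) and *Atf3* (−0.26 to 0.47). Between euglycemic and WT they were *Fos* (−1.72 to 0.0087), *Egr1* (−1.08 to 0.18), *Ier2* (−0.35 to 0.26) and *Atf3* (−0.66 to 0.17). Between diabetic and euglycemic libraries they were *Fos* (−1.29 to 0.44), *Jun* (−1.04 to 0.36), *Egr1* (−0.63 to 0.63), *Atf3* (−0.13 to 0.72), *Dusp1* (−1.01 to 0.24) and *Btg2* (−0.66 to 0.13). The median within-group SD of the members was 0.93 to 1.11 when 1 library was left out and 0.998 to 1.19 under the other alternatives. The causes were not tested.

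Same-numbered libraries were not more alike than others. Their deviations correlated by −0.13 on average (10 pairs, −0.37 to 0.21) and those of other pairs by 0.043 (30 pairs, −0.32 to 0.36). The labels do not say whether libraries of 1 number shared litters or days of isolation, and this was not tested. With the replicate number as a block, 0 members were called in each comparison, as without it, and the calls over all genes tested were 45, 20 and 0, against 109, 62 and 1. Library weights gave 551, 2287 and 1212, and leaving out WT replicate 1 gave 34, 532 and 380. With 3 or 4 libraries a group and SDs above 1, the intervals of *Fos* and *Jun* are wide.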

Other observations

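*Cebpd*, *Arc* and *Npas4* were singled out after their values were seen. *Cebpd*, which encodes a C/EBP factor of the acute phase, was at 68.7, 90.2 and 80.3 FPKM in WT, 14.9, 52.6, 29.9 and 21.3 in diabetic and 157, 70.1, 91.8 and 182 in euglycemic libraries. The diabetic libraries lay below both other groups without overlap. Of all genes tested, 6.88% lay below WT in this way, and 14.3% were apart in either direction between diabetic and euglycemic libraries. The log2 fold changes of *Cebpd* were −1.54 against WT (adjusted p = 0.103) and −2.09 against euglycemic libraries (adjusted p = 0.0846), neither of which passed in limma. Library weights called it in both comparisons (adjusted p = 0.0102 and 0.0132 in limma), where they called 4.90 and 10.8% of all genes tested. *Cebpd* was also called against WT without diabetic replicate 2 (−1.85, adjusted p = 0.043), with 0.601% of all genes called. Against euglycemic libraries it was called without WT replicate 1 (−2.09, adjusted p = 0.0344), with 3.40% of all genes called. It was not called without WT replicate 1 against WT (adjusted p = 0.2 in limma), without diabetic replicate 2 against euglycemic libraries (adjusted p = 0.0599 in limma), or in any other fit that left out 1 library, rescaled the values, changed the filter or the pseudocount, dropped the trend or used the replicate block. Over 15.0% of its exon bases *Cebpd* overlaps *Spidr* on the other strand, and reads of the pair cannot be told apart.

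*Npas4*, a factor that depolarization and calcium induce in β-cells and neurons, was at 2.49, 46.0 and 42.1 FPKM in WT, 9.50, 4.80, 8.63 and 7.10 in diabetic and 3.88, 4.46, 2.19 and 3.34 in euglycemic libraries. *Arc*, a gene of the same response, was at 25.8, 87.1 and 83.7 in WT, 25.7, 7.30, 20.4 and 19.8 in diabetic and 33.7, 14.4, 8.05 and 7.83 in euglycemic libraries. Both were high in WT replicates 2 and 3. WT replicate 1 was low for both, and the mutant libraries were at or below 33.7 FPKM for *Arc* and 9.50 for *Npas4*. Neither passed in limma between euglycemic and WT libraries, with log2 fold changes of −2.13 for *Npas4* (adjusted p = 0.202) and −2.02 for *Arc* (adjusted p = 0.145). Without WT replicate 1 both were called in that comparison (−3.36 with adjusted p = 0.000707 and −2.59 with adjusted p = 0.0303, limma). That fit called 4.76% of all genes there, 0.304% between diabetic and WT and 3.40% between diabetic and euglycemic libraries. With 2 WT libraries left, *Npas4* was then also called between diabetic and WT (−2.44, adjusted p = 0.00652, against −1.21 and adjusted p = 0.522 with all 11 libraries) and between diabetic and euglycemic libraries (0.92, adjusted p = 0.0472, against 0.92 and adjusted p = 0.413). Library weights called both genes against WT in both mutant groups (adjusted p of 0.000515 to 0.0109, limma). They called 4.90% of all genes tested between diabetic and WT and 20.3% between euglycemic and WT. WT replicate 1 was also the lowest WT library for 9 of the 10 immediate early genes.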
